A study of Homo sapiens with 66 samples.

Results

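RNA polymerase II synthesises messenger RNA, and its subunits are encoded by the POLR2 genes. The 9 genes described here were taken from a list of 10 symbols, each matched through its Ensembl identifier to GENCODE 29 in a count table of 13331 genes. They are POLR2A, POLR2B, POLR2C, POLR2D, POLR2E, POLR2G, POLR2H, POLR2I and POLR2K. POLR2F was not analysed here. The comparison set the transcript of POLR2A against those of the other 8 genes when Mediator subunits, CDK9 or BET proteins were targeted for degradation. All 9 genes passed the filter on low counts, and the lowest count of any of them in any library was 10, for POLR2C.

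RNA was measured by 3′ end sequencing (QuantSeq) in KBM7, a human line from chronic myeloid leukaemia, in 22 groups of 3 libraries. Of 9 engineered lines, 1 carried a degradation tag on CDK9, the catalytic part of P-TEFb, which releases paused polymerase. The other 8 carried it on a subunit of Mediator, the complex that connects transcription factors with the polymerase. The tagged subunits were MED14, the scaffold, MED6, MED10, MED28 and MED31, and the outer MED1, MED26 and MED12. These lines received DMSO or 500 nM dTAG7, a compound that directs tagged proteins to a ubiquitin ligase. Cells without a tag (wild type) were given DMSO, dTAG7 at the same dose, 250 nM THAL-SNS-032, which degrades CDK9, or 100 nM dBET6, which degrades BET bromodomain proteins. Every treatment lasted 6 h. Each tag was present in 1 engineered line, the labels do not say whether a line is a clone, and loss of the proteins was not measured here. Replicates were wells treated in triplicate, so a p-value here reflects variation between wells, and that variation may be technical only. Of 12 markers of blood progenitors or leukaemic cells, 12 were in the table. Of fibroblast markers 0 of 4 were there, of epithelial markers 2 of 5, of T cell markers 3 of 4 and of B cell markers 4 of 4. In wild-type DMSO libraries the B cell markers had at most 19 counts and the T cell markers at most 41. The epithelial KRT8 had 19 to 26 and KRT18 60 to 95, the latter like the lowest blood marker, SPI1 (62 to 75).

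The polymerase is built around a catalytic pair, RPB1 (POLR2A) and RPB2 (POLR2B), on an assembly platform that includes RPB3 (POLR2C) and RPB12 (POLR2K). RPB1 carries the carboxy-terminal domain (CTD), a tail of repeats that is phosphorylated as transcription begins and elongates. RPB4 (POLR2D) and RPB7 (POLR2G) form a stalk near the RNA exit, RPB5 (POLR2E) and RPB9 (POLR2I) belong to the jaws around downstream DNA, and RPB5, RPB8 (POLR2H) and RPB12 are also subunits of RNA polymerases I and III.

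POLR2A (ENSG00000181222) lies on hg38 at chr17:7484366-7514616 on the plus strand. The stalk gene POLR2D (ENSG00000144231) lies at chr2:127843551-127858157 on the minus strand, and the jaw gene POLR2E (ENSG00000099817) at chr19:1086579-1095380 on the minus strand. Promoters of 6 of the 9 genes were taken from the RefSeq table (GRCh38.p14), which gives 300 bases per start, from 250 before it to 50 after it. Those of POLR2A, POLR2D and POLR2E are shown. POLR2A moved apart from the other subunit genes in Mediator lines, and in the CDK9 line POLR2D fell most and POLR2E least of the 9. Capitals mark GC boxes (GGGCGG) and an ETS site (CCGGAAG), searched on both strands, and sequences run 5′ to 3′ on the gene's own strand.
POLR2A, chr17:7484116-7484415, plus strand: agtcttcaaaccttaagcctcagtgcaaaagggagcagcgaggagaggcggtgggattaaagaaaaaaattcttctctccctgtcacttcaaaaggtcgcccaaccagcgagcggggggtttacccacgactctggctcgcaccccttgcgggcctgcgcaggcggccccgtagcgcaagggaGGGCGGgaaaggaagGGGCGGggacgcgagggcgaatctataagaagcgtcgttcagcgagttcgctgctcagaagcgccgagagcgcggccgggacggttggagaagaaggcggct
POLR2D, chr2:127858106-127858405, minus strand: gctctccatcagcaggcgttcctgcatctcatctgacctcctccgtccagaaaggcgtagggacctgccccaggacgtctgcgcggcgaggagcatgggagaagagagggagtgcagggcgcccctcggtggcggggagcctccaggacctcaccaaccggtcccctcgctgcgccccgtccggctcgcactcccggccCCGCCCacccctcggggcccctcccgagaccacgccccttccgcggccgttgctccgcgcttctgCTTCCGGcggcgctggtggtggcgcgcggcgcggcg
POLR2E, chr19:1095326-1095625, minus strand: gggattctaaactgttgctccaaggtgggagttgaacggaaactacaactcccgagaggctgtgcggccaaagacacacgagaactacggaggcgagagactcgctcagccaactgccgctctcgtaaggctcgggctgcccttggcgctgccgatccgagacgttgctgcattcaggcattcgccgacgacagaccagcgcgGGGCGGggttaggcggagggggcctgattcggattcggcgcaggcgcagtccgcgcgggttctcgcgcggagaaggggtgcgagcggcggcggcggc
The POLR2A window held 2 GC boxes, the POLR2D window 1 GC box and 1 ETS site, and the POLR2E window 1 GC box. Of 35116 promoters in the table, 45% held a GC box and 10.3% an ETS site. None of the 3 windows held the letters TATAAA (11.5% of promoters), CCAAT (34.6%), CACGTG (7.26%) or GCATGCG (3.91%). Their GC contents were 61.3%, 73.7% and 65.7%, against a median of 58.7% over all promoters.

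Endogenous counts ran from 439261 to 4337368 per library and spike-in counts from 10950 to 72684. Levels are given on the spike-in scale, as CPM, with each library's spike-in total as its size. Changes are also given on the TMM scale, which sets a gene against the bulk of the other genes of its library. The scales differ where RNA per spike-in fell: it was 11.3% of DMSO with dBET6, 17.6% with THAL-SNS-032, 19.2% in the CDK9 line and 63.2% in the MED14 line. The median gene changed there by log2 -3.67, -2.86, -2.93 and -0.69 on the spike-in scale, by -0.27 in the MED6 line, -0.19 in MED10 and -0.14 in MED26. By the labels, spike-ins were added to each lysate for normalization to cell count. No cell counts were used here, so in these bulk samples fewer cells and less RNA per cell cannot be told apart. The dTAG7 library A of the MED6 line and the DMSO library B of the MED12 line stood apart, with chi-square per degree of freedom of 14.8 and 18.5, and of 8.46 and 8.63, against the other libraries of their groups. Whether counting used strand is not given in the sources used here, so reads of POLR2B, POLR2C and POLR2E cannot be told apart from those of the antisense genes IGFBP7, DOK4 and ARHGAP45 at their 3′ ends. POLR2C has 1 and POLR2K 2 annotated pseudogenes, which makes their counts less certain.

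In the 30 DMSO libraries POLR2E and POLR2A were the most abundant of the 9 transcripts. A 3′ end library yields about a tag per transcript, so these levels were not divided by length. POLR2E ran from 688 to 1431 CPM with a median of 1074, and POLR2A from 399 to 676 with a median of 533, so that these ranges did not overlap. POLR2B followed with a median of 354 CPM (152 to 525), a range that overlapped that of POLR2A. POLR2G had a median of 187 CPM (148 to 232), and its range overlapped that of POLR2B. POLR2D (median 127 CPM) and POLR2H (median 124 CPM) lay together, as did POLR2K (84.7 CPM), POLR2I (68.4 CPM) and POLR2C (59.2 CPM), with overlapping ranges. In comparisons of DMSO levels between the 9 engineered lines and wild type, edgeR called 0 of 81 member tests on either scale, with 5 at an unadjusted p under 0.05. Between 0.0799 and 8.98% of all genes were called higher or lower in one of these comparisons on the spike-in scale, and between 0.116 and 7.79% on the TMM scale, counting each direction by itself.

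POLR2A rose in 6 of the 8 Mediator lines after dTAG7, to between 158 and 239% of its DMSO level, and fell to between 8.75 and 14.8% when CDK9 or BET proteins were targeted. In the MED26 line its level was 456, 487 and 480 CPM with DMSO and 1100, 1208 and 1091 CPM with dTAG7. In the MED31 line the values were 590, 501 and 558 CPM against 1254, 1246 and 1329 CPM, and in the MED10 line 544, 560 and 548 CPM against 1125, 1234 and 1091 CPM. In these lines the lowest treated library lay far above the highest DMSO library. The MED14 line, which carries the tag on the scaffold subunit of Mediator, had 537, 549 and 545 CPM with DMSO and 1088, 992 and 1035 CPM with dTAG7, in libraries whose median gene had fallen. The MED6 line had 518, 595 and 514 CPM with DMSO and 631, 1175 and 1184 CPM with dTAG7, where library A lay close to the DMSO libraries. The MED28 line had 676, 529 and 589 CPM with DMSO and 949, 941 and 942 CPM with dTAG7. Treated and DMSO libraries did not overlap in any of these 6 lines.

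The MED1 and MED12 lines and wild-type cells with dTAG7 showed smaller differences. The MED1 line had 528, 491 and 498 CPM with DMSO and 571, 606 and 594 CPM with dTAG7, without overlap. The MED12 line had 574, 399 and 567 CPM with DMSO and 599, 590 and 572 CPM with dTAG7, which overlapped. Wild-type cells had 492, 537 and 544 CPM with DMSO and 519, 536 and 509 CPM with dTAG7, also overlapping. Where CDK9 or BET proteins were targeted POLR2A was low in every library. The CDK9 line went from 488, 455 and 430 CPM to 57.5, 61.2 and 73.7 CPM. Wild-type cells had 85.8, 49.7 and 97.9 CPM with THAL-SNS-032 and 43.2, 41.0 and 53.4 CPM with dBET6.

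**Figure D1:**
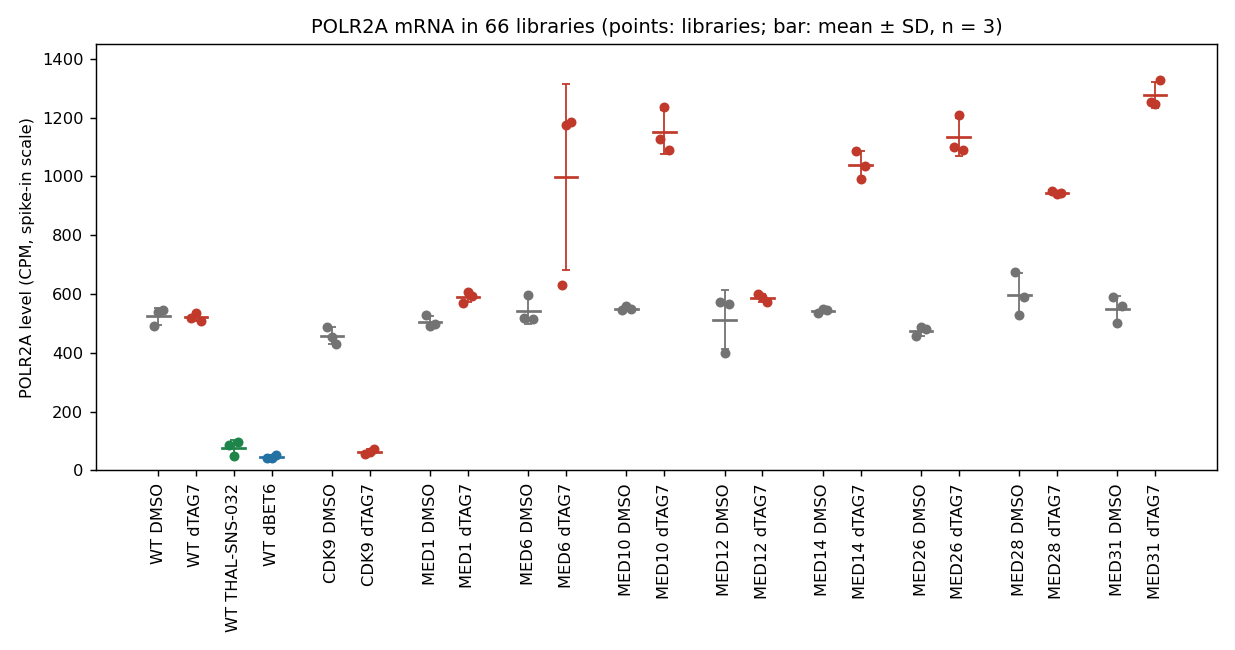
POLR2A level in CPM on the spike-in scale (vertical axis) in each of the 22 groups (horizontal axis), with points for libraries and bars for mean ± SD (n = 3). The dTAG7 libraries of the MED6, MED10, MED14, MED26, MED28 and MED31 lines lie above their DMSO libraries, and the CDK9 dTAG7, THAL-SNS-032 and dBET6 libraries lie lowest, at no more than 97.9 CPM.

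By edgeR's quasi-likelihood test with Benjamini-Hochberg adjustment over 12515 genes, POLR2A rose on the spike-in scale by log2 1.26 ± 0.14 (SE) in the MED26 line (adjusted p = 3.93e-09), where 0.264% of genes were called higher. The rise was 1.22 ± 0.14 in the MED31 line (adjusted p = 5.08e-08, 0.495% called higher), where POLR2A had rank 1 by p among all genes. It was 1.06 ± 0.14 in the MED10 line (adjusted p = 3.05e-08, 2.71% called higher) and 0.93 ± 0.14 in the MED14 line (adjusted p = 6.31e-08, 1.7% called higher). It was 0.88 ± 0.14 in the MED6 line (adjusted p = 1.07e-05, 0.775% called higher) and 1.12 without library A. It was 0.66 ± 0.14 in the MED28 line (adjusted p = 0.0013, 0.775% called higher).

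POLR2A was not called in the MED1 line (0.22 ± 0.14, adjusted p = 1), in the MED12 line (0.19 ± 0.14, adjusted p = 0.497, and 0.04 without DMSO library B) or in wild type with dTAG7 (-0.01 ± 0.14). In these comparisons edgeR called 0, 1.57 and 0% of genes higher. POLR2A fell in the CDK9 line (-2.84 ± 0.16), with THAL-SNS-032 (-2.77 ± 0.15) and with dBET6 (-3.52 ± 0.16), where 95.3, 96.2 and 97.1% of genes were called lower.

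With TMM scaling and 12892 genes tested, POLR2A was called higher in the same 6 lines. The change was 1.62 ± 0.09 in the MED14 line, 1.40 in MED26, 1.26 in MED10, 1.25 in MED31, 1.11 in MED6 and 0.71 in MED28, where 13.4, 0.97, 8.06, 1.46, 2.89 and 2.09% of genes were called higher. By p it ranked 1 of all genes in the MED26 and MED31 lines, 3 in MED6, 4 in MED14, 7 in MED10 and 20 in MED28. Where CDK9 or BET proteins were targeted POLR2A moved with the median gene: on the TMM scale its change was -0.02 ± 0.10 in the CDK9 line, -0.01 ± 0.10 with THAL-SNS-032 and 0.06 ± 0.10 with dBET6, none of them called.

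None of the other 8 subunit genes was called higher on the spike-in scale in any of the 12 comparisons, with 0.224% of genes called higher in the CDK9 line, 0.423% with dBET6 and 0.256% with THAL-SNS-032. In the MED14 line all 8 fell, where 63.3% of all genes were called lower. The catalytic partner POLR2B had 279, 322 and 335 CPM with DMSO and 176, 184 and 192 CPM with dTAG7, a change of -0.76 ± 0.21 (edgeR adjusted p = 0.00149). The platform genes POLR2C and POLR2K changed by -0.61 ± 0.17 and -0.49 ± 0.16. The stalk gene POLR2D had 110, 120 and 123 CPM against 66.3, 72.6 and 67.4 CPM, a change of -0.78 ± 0.13. Its stalk partner POLR2G changed by -0.46 ± 0.17, a call that was lost without dTAG7 library A (-0.37, adjusted p = 0.102). The jaw genes POLR2E and POLR2I changed by -0.72 ± 0.11 and -0.68 ± 0.17. POLR2H, shared by the nuclear polymerases, had the largest change of the 8, -1.02 ± 0.18, from 103, 108 and 118 CPM to 50.6, 49.8 and 61.5 CPM. Libraries of both arms did not overlap for any of the 8 genes, and overlap was not counted over all genes. The median change of the 8, -0.70, lay close to the -0.69 of all genes. With TMM scaling edgeR called 0 of the 8 in this line, where 16.6% of genes were called lower, with 1 at an unadjusted p under 0.05.

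In the other Mediator lines 1 call was made among the 8 genes. POLR2H was lower in the MED6 line, where 18.4% of genes were called lower. Its levels were 114, 132 and 114 CPM with DMSO and 41.3, 89.0 and 94.4 CPM with dTAG7, a change of -0.70 ± 0.17 (edgeR adjusted p = 0.00353). Without library A, the lowest, the change was -0.39 (adjusted p = 0.132). POLR2B was also low in that library, with 104, 326 and 319 CPM over the dTAG7 libraries A, B and C. Of the 8 genes edgeR called 0 in the MED1, MED10, MED12, MED26, MED28 and MED31 lines, where 0, 19, 3.4, 2.88, 4.07 and 2.61% of all genes were called lower. The number at an unadjusted p under 0.05 was 3 in the MED10 line, 1 in the MED31 line and 0 in the other four. DESeq2 and limma on the authors' loess values also called 0 in these 6 lines, while fits on a line's own libraries called 4 in MED10 and 1 in MED28. With TMM scaling POLR2H was again the 1 call in these lines (-0.46 in MED6, where 3.66% of genes were called lower). The share of all genes called lower on that scale was 0.00776% in MED1, 10% in MED10, 5.7% in MED12 (with 3.06% higher), 1.4% in MED26, 4.34% in MED28 and 3.02% in MED31, and the members at an unadjusted p under 0.05 numbered 0, 0, 2, 0, 2 and 1. In wild type with dTAG7 edgeR, DESeq2 and limma called 0 members, and 0 of 9 had an unadjusted p under 0.05.

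**Figure D2:**
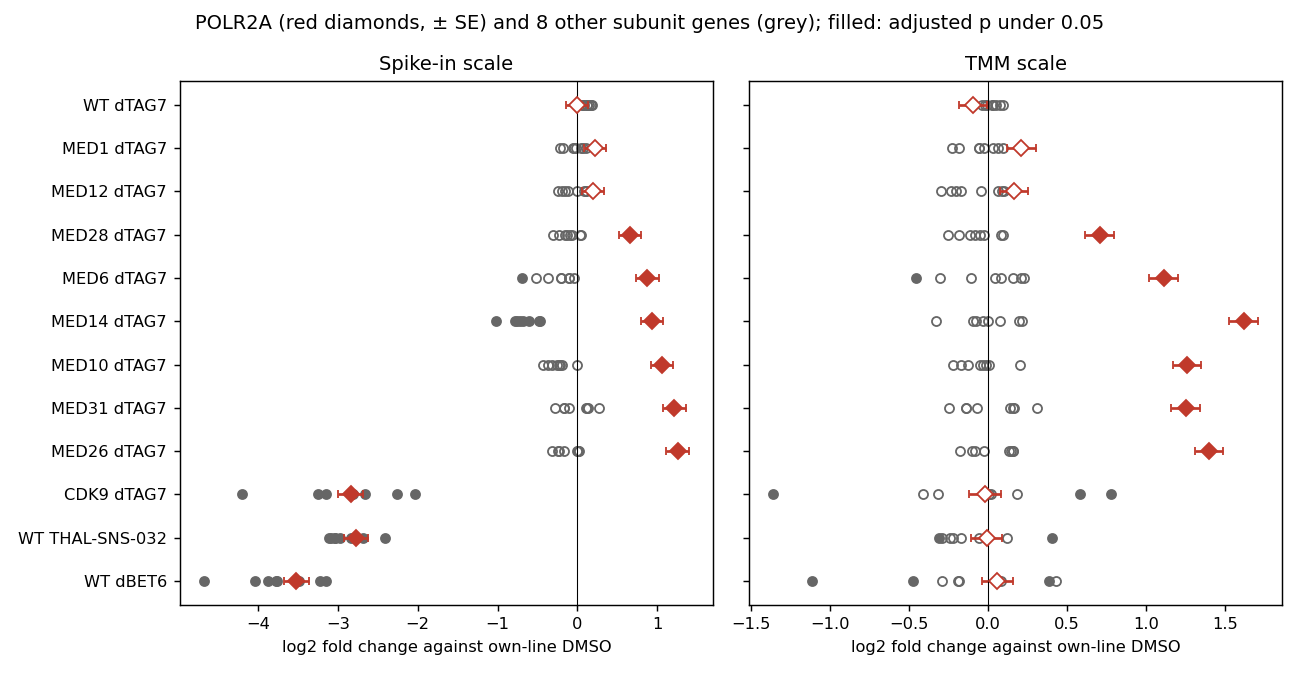
Log2 fold change against own-line DMSO (horizontal axis) of POLR2A (red diamonds, ± SE) and the 8 other subunit genes (grey circles) in 12 comparisons (rows), on the spike-in scale (left) and the TMM scale (right), with filled symbols for adjusted p under 0.05. POLR2A lies above all 8 others in each of the 8 Mediator lines, at 1.62 on the TMM scale in the MED14 line, and among them in the CDK9, THAL-SNS-032 and dBET6 rows.

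The change of POLR2A lay above that of each of the other 8 genes in all 8 Mediator lines, MED1 and MED12 included, and below each of them in wild type with dTAG7. On the spike-in scale it exceeded their median by 1.63 in the MED14 line, 1.34 in MED26, 1.30 in MED10, 1.21 in MED31, 1.09 in MED6, 0.77 in MED28, 0.25 in MED1 and 0.25 in MED12. The difference from the median was -0.02 in the CDK9 line, 0.25 with dBET6 and 0.23 with THAL-SNS-032, where 3, 5 and 6 of the 8 genes had a lower change than POLR2A.

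The share of POLR2A among the counts of the 9 genes needs no scaling between libraries. In the MED14 line it went from 23.5 ± 0.746% with DMSO to 48.8 ± 2.41% with dTAG7 (SD, n = 3), close to as many counts as the other 8 genes together. It went from 20.3 ± 1.40% to 39.0 ± 1.26% in the MED31 line, from 19.9 ± 0.737% to 38.1 ± 0.404% in MED10 and from 19.2 ± 1.22% to 37.4 ± 1.68% in MED26. The MED6 line, with the library that stood apart, went from 21.2 ± 1.93% to 36.5 ± 6.43%, and MED28 from 19.5 ± 1.84% to 29.2 ± 0.262%. Smaller shifts were seen in the MED1 line, from 19.3 ± 0.238% to 21.97 ± 0.752%, and in the MED12 line, from 21.6 ± 2.22% to 25.0 ± 0.543%. The mean share was lower after treatment in the CDK9 line (14.4 ± 1.44% against 18.4 ± 0.619%). In wild type it was 20.5 ± 1.53% with DMSO, 19.0 ± 1.16% with dTAG7, 18.7 ± 3.49% with THAL-SNS-032 and 19.6 ± 1.77% with dBET6. The share is weighted towards POLR2E, the most abundant of the 9, and the log2 ratio of POLR2A to the geometric mean of the other 8 weights them equally. This ratio did not fall with the share: it differed from DMSO by 0.036 in the CDK9 line and 0.076 with THAL-SNS-032, where libraries overlapped. With dBET6 it differed by 0.25, and the lowest treated library (1.8794) lay barely above the highest DMSO library (1.8792).

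**Figure D3:**
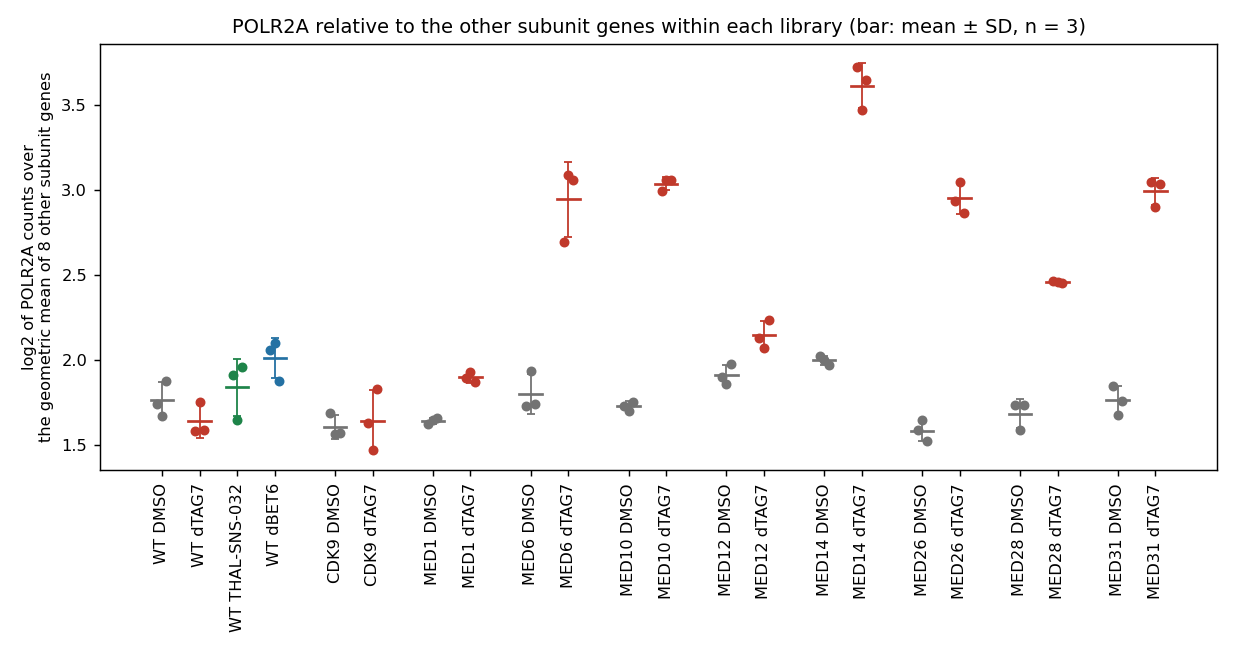
Log2 of POLR2A counts over the geometric mean of the counts of the other 8 subunit genes (vertical axis) within each library of the 22 groups (horizontal axis), with bars for mean ± SD (n = 3). The MED14 dTAG7 libraries lie highest, at 3.62 ± 0.13 against 2.0 ± 0.03 with DMSO. Treated and DMSO libraries overlap in the CDK9 line and in wild type with dTAG7 or THAL-SNS-032. With dBET6 the lowest library (1.8794) and the highest wild-type DMSO library (1.8792) nearly coincide.

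The effect of dTAG7 on POLR2A in each line was tested against that in wild-type cells. The difference was 1.26 ± 0.20 in the MED26 line (edgeR adjusted p = 5.52e-05), 1.22 in MED31, 1.07 in MED10, 0.94 in MED14 and 0.88 in MED6, with 0.0479, 0.016, 0.551, 0.623 and 0.168% of genes called higher in these contrasts. Without the 2 libraries that stood apart the MED6 value was 1.13. The MED28 difference of 0.67 missed the threshold on the spike-in scale (adjusted p = 0.0618) and passed it on the TMM scale (0.80, adjusted p = 2.95e-05, 0.295% called higher). The differences in MED1 (0.23) and MED12 (0.20) were not called on either scale.

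Among the 8 Mediator lines the effect on POLR2A differed by an F test on the spike-in scale (edgeR adjusted p = 4.28e-06, 46.2% of genes called) and on the TMM scale (adjusted p = 2.61e-16, rank 7 by p, 12.4% called). This test also called POLR2D, POLR2E, POLR2H and POLR2K on the spike-in scale. With TMM scaling edgeR called 0 of the other 8 genes by this test, of which POLR2D and POLR2K had unadjusted p of 0.0191 and 0.0449. Of 28 pairs of Mediator lines, 9 differed in the effect on POLR2A on the spike-in scale. The MED1 effect was lower than the MED10 (-0.84), MED14 (-0.71), MED26 (-1.03) and MED31 (-0.99) effects. The MED12 effect was lower than the MED14 (-0.74), MED26 (-1.06) and MED31 (-1.02) effects, and the MED6 and MED10 effects exceeded it by 0.68 and 0.87. Between 0.00799 and 0.631% of genes were called in the direction of POLR2A in these contrasts. Without the 2 libraries that stood apart MED6 minus MED12 was 1.08 and the MED1 effect was also lower than the MED6 effect (-0.90, adjusted p = 0.000263). The MED10, MED14 and MED26 effects exceeded the MED28 effect on the TMM scale, by 0.55, 0.91 and 0.69. On that scale the MED28 effect was also lower than the MED31 effect (-0.54), and the MED6 effect lower than the MED14 effect (-0.51). No difference was called on either scale among the MED10, MED14, MED26 and MED31 lines. Without the 2 libraries that stood apart, the MED6 effect on the TMM scale exceeded the MED28 effect (0.57, edgeR adjusted p = 0.00133). The MED12 effect was then lower than the MED28 effect (-0.60, adjusted p = 0.00381), and MED6 minus MED14 was -0.34.

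Where CDK9 or BET proteins were targeted all 9 members fell, and on the TMM scale the stalk gene POLR2D was lower and the jaw gene POLR2E higher than the bulk of genes. POLR2D went from 135, 122 and 101 CPM to 5.23, 5.80 and 8.96 CPM in the CDK9 line, values that rest on 38, 11 and 27 counts. Wild-type cells had 121, 128 and 108 CPM with DMSO, 15.4, 10.3 and 16.4 CPM with THAL-SNS-032 and 2.67, 3.81 and 7.74 CPM with dBET6. Treated and DMSO libraries did not overlap in any of these comparisons. POLR2D changed on the TMM scale by -1.36 ± 0.14 in the CDK9 line (edgeR adjusted p = 4.98e-12), -1.11 ± 0.15 with dBET6 (adjusted p = 7.73e-09) and -0.31 ± 0.12 with THAL-SNS-032 (adjusted p = 0.0374), where 27, 23.2 and 16% of genes were called lower. The THAL-SNS-032 call was lost with median-of-ratios scaling (-0.24, adjusted p = 0.119). The platform gene POLR2C was lower with dBET6 (-0.48 ± 0.20, adjusted p = 0.0494), a call also lost with that scaling (-0.33).

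POLR2E, the most abundant of the 9 transcripts, went from 1096, 1011 and 1073 CPM to 237, 269 and 270 CPM in the CDK9 line, and kept 24.4% of its DMSO level where POLR2D kept 5.58%. In wild-type cells it had 1110, 1133 and 1006 CPM with DMSO, 212, 196 and 204 CPM with THAL-SNS-032 and 112, 133 and 102 CPM with dBET6. Its fall was smaller than that of the median gene: on the TMM scale it was higher by 0.78 ± 0.13 in the CDK9 line (edgeR adjusted p = 1.85e-06), 0.40 ± 0.13 with THAL-SNS-032 and 0.39 ± 0.13 with dBET6, where 21.1, 14.1 and 18.2% of genes were called higher. The other jaw gene, POLR2I, was higher by 0.58 ± 0.21 in the CDK9 line and was not called with dBET6 (0.43) or THAL-SNS-032 (0.12).

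**Figure D4:**
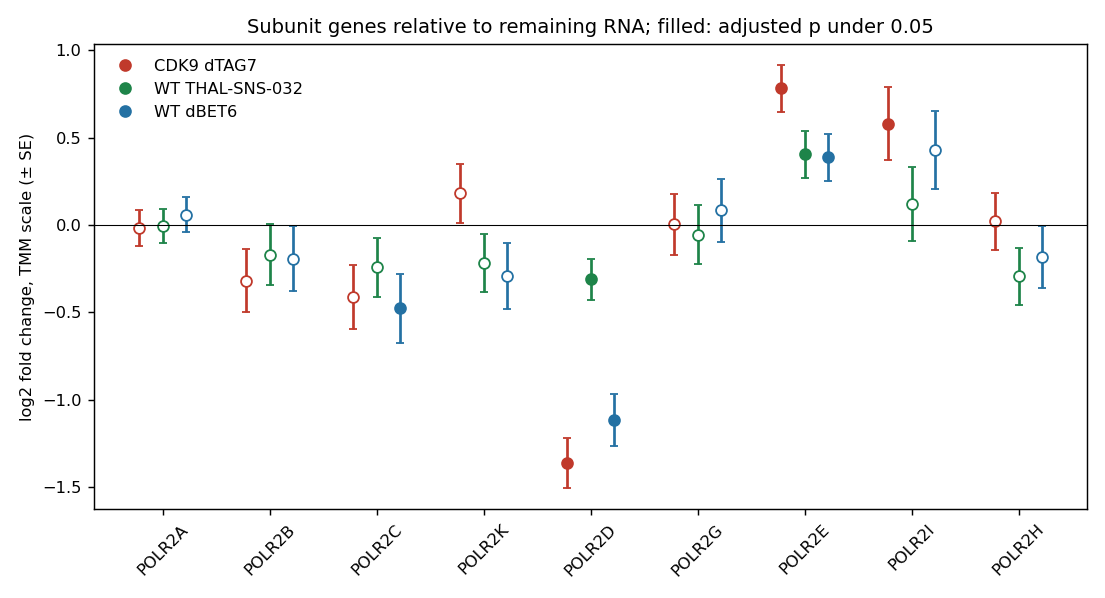
Log2 fold change on the TMM scale (vertical axis, ± SE) of the 9 subunit genes (horizontal axis) in the CDK9 line with dTAG7 and in wild type with THAL-SNS-032 or dBET6, with filled symbols for adjusted p under 0.05. POLR2A lies near 0 in all 3 comparisons, POLR2D is lowest at -1.36 and POLR2E highest at 0.78, both in the CDK9 line.

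dTAG7 at 500 nM in the CDK9 line and THAL-SNS-032 at 250 nM in wild type target the same kinase at different doses and in different cells. Tested against each other, each relative to its own DMSO, the effects differed for 1 of the 9 members: the difference for POLR2D was -1.09 ± 0.25 (edgeR adjusted p = 0.00916), where 2.23% of genes were called lower. With TMM scaling it was -1.05 (adjusted p = 0.000402). For POLR2A the difference was -0.07 ± 0.21 (adjusted p = 0.912).

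Further polymerase II genes of the table did not rise with POLR2A. POLR2L, a subunit shared by the 3 nuclear polymerases, POLR2J, the partner of RPB3, and POLR2M fell on the spike-in scale in the MED14 line (-0.47, -0.44 and -0.80), in the CDK9 line and with dBET6 and THAL-SNS-032, and none was called in the remaining 8 comparisons. In the comparisons where they fell, 63.3, 95.3, 97.1 and 96.2% of all genes were called lower, in the order given. POLR2L and POLR2J were called higher on the TMM scale in the CDK9 line, by 0.95 and 0.77, and also with dBET6 and THAL-SNS-032. Of all genes 21.1, 18.2 and 14.1% were called higher there on that scale. POLR2M changed by -0.93 in the CDK9 line.

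Of all genes, 63.3% were called lower on the spike-in scale in the MED14 line, 19% in MED10, 18.4% in MED6, 4.07% in MED28, 3.4% in MED12, 2.88% in MED26 and 2.61% in MED31. Genes of RNA polymerase I, which makes ribosomal RNA, fell in some Mediator lines and were not called in others. Of 7 tested, some of which also serve polymerase III, 7 fell in the MED14 line, 7 in MED10, 6 in MED12, 5 in MED28, 1 in MED31 and 0 in MED26. CD3EAP, which encodes a polymerase I subunit, changed by -3.12 in the MED14 line, -1.81 in MED10 and -1.43 in MED12, where POLR2A was not called, and by -0.11, not called, in MED26. The catalytic POLR1A and POLR1B changed by -1.56 and -2.20 in the MED14 line. Of 11 genes of polymerase III, which makes transfer RNA, 10 fell in the MED14 line, 9 in MED10, 5 in MED12, 4 in MED28 and 0 in both MED26 and MED31. POLR3E changed by -1.83, CRCP by -1.39 and POLR3G by -1.36 in the MED14 line. The list medians in that line were -1.73 and -1.36, against -0.69 over all genes. In the MED6 line 4 and 6 genes of these lists fell, where 18.4% of all genes were called lower. Without the 2 libraries that stood apart 2 and 3 fell, in a fit where calls over all genes were not counted.

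Of 16 factors that assemble or import the polymerase, 13 fell in the MED14 line (median -0.79), 4 in MED6, 4 in MED10, 2 in MED12, 2 in MED28, 1 in MED31 and 0 in both MED1 and MED26. Of all genes 63.3, 18.4 and 19% were called lower in MED14, MED6 and MED10, so that the MED6 and MED10 counts are near the share over all genes. Without the 2 libraries that stood apart 2 fell in MED6 and 3 in MED12, and calls over all genes were not counted in that fit. On the TMM scale 3 of the 16 were called lower and 2 higher in MED14, against 16.6 and 13.4% of all genes. The changes of single genes below are on the spike-in scale. RUVBL1, an ATPase of the assembly chaperone complex, changed by -1.17 in the MED14 line, -0.67 in MED10, -0.52 in MED12 and -0.34 in MED31. URI1, a prefoldin-like partner, changed by -1.26 in the MED14 line, and PDRG1 by -0.99. Among 12 kinases and cyclins that act on the CTD, only CDK19, paralog of the Mediator kinase CDK8, was called higher on the spike-in scale. It rose by 0.69 in MED10, 0.66 in MED28 and 0.44 in MED12, where 2.71, 0.775 and 1.57% of all genes were called higher. Its levels in the MED28 line were 60.2, 56.5 and 63.3 CPM with DMSO and 96.2, 98.8 and 90.7 CPM with dTAG7. The MED12 call was lost without the 2 libraries that stood apart (0.31, edgeR adjusted p = 0.18). The elongation kinase CDK12 and the Mediator cyclin CCNC changed by -1.26 and -1.05 in the MED14 line. Of these 12 genes, 5 were called lower on the spike-in scale in MED14, 2 in MED6 and 1 in MED10. On the TMM scale 5 were called higher and 2 lower in MED14, against 13.4 and 16.6% of all genes.

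As a background on the spike-in scale, 63.3% of all genes were called lower in MED14, 19% in MED10, 18.4% in MED6, 3.4% in MED12 and 2.88% in MED26. Of 12 CTD phosphatases and CTD-binding proteins, 10 fell in the MED14 line, 3 in MED6, 2 in MED26 and 1 in MED10. The phosphatase CTDSP1 changed by -1.20 in MED14 and -0.55 in MED26, the phosphatase CTDP1 by -0.98 in MED14, and PCIF1, which binds the phosphorylated CTD, by -1.33 in MED14 and -1.15 in MED26. Of 20 pausing and elongation factors, 19 fell in the MED14 line, 8 in MED6, 7 in MED10 and 1 in MED12. NELFA, of the pausing complex NELF, changed by -1.37, IWS1 by -1.23 and LEO1, of the PAF1 complex, by -0.90 in the MED14 line. These genes changed on the TMM scale by -2.61, -1.69 and -1.62 in the CDK9 line. The list as a whole did not follow them: 7 of the 20 were called lower and 4 higher there, with a median of -0.0094. Of all genes 27% were called lower and 21.1% higher in that comparison. Of 14 genes that act in ubiquitination of RPB1, 11 fell in the MED14 line, 6 in MED6, 4 in MED10 and 2 in MED26. In the MED6 line the counts of these 3 lists were 1, 2 and 1 without the 2 libraries that stood apart, and the elongation count in MED12 was 0. Calls over all genes were not counted in that fit, so these counts have no background. On the TMM scale, 2, 3 and 4 of their genes were called lower in the MED14 line and 3, 1 and 2 higher. Of all genes 16.6% were called lower and 13.4% higher there.

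ARMC5, the adaptor through which a CUL3 ubiquitin ligase recognises RPB1, was called lower in more comparisons than any other gene of the ubiquitination list. Its counts were low. Summed over the 3 libraries of an arm, it had 71 counts with DMSO and 12 with dTAG7 in the MED14 line, 78 and 18 in MED26, 53 and 21 in MED10, and 47 and 31 in MED6. The changes on the spike-in scale were -2.52, -2.11, -1.37 and -1.18, of which the MED6 call was lost without the 2 libraries that stood apart (-1.16, edgeR adjusted p = 0.0554) and on the TMM scale (-0.90). In the MED31 line it had 60 and 33 counts and a change of -0.999 that was not called. ARMC5 was not called in the MED1, MED12 and MED28 lines, with 51, 49 and 70 counts after dTAG7 against 55, 75 and 71. It had 0 counts after dTAG7 in the CDK9 line against 47 with DMSO, and 2 with dBET6 and 3 with THAL-SNS-032 against 65 in wild-type DMSO libraries. UBAP2L and ELOA, of the same list, changed by -1.08 and -1.14 in the MED14 line.

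Across the 22 group means of log2 TMM CPM, the pattern of POLR2A was closest to those of 5 genes among 10205 with a mean of at least 5 CPM: AL683813.1 (Pearson r = 0.92), NXF1 (0.92), NEDD1 (0.90), NCEH1 (0.90) and KRCC1 (0.90). Groups share their lines and controls, so these correlations are a description. NXF1, the mRNA export receptor, was higher on the spike-in scale in the MED14 line by 0.89 ± 0.17 (edgeR adjusted p = 6.94e-06), in MED6 by 0.60 and in MED10 by 0.58, of which the MED6 call was lost without the 2 libraries that stood apart (0.49, adjusted p = 0.0791). It was not called in MED26 (0.52, adjusted p = 0.0726). Among the other subunit genes POLR2K came closest, at rank 1324 with r = 0.44, and POLR2H was farthest, at rank 9237 with r = -0.45. On the spike-in scale 4 of 12515 genes were called higher in all 6 lines in which POLR2A was, a count made after the calls of POLR2A were seen: HEXIM1, which encodes an inhibitor of P-TEFb, POLR2A itself, SMIM14 and ZMAT1. On the TMM scale there were 18 of 12892.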

How the data were processed

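Read counts per gene and spike-in (ERCC and SIRV) were deposited by the authors for 66 libraries. STAR 2.5.2b, HTSeq 0.6.0, bedtools 2.26.0 and hg38 are named by the submitters' processing notes, without order or settings. A table of loess-normalized signal values, deposited by the authors with no program named, served for 1 alternative only.

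Counts were tested with edgeR 4.0.16 (R 4.3.3), by quasi-likelihood F tests on 22 group means of all 66 libraries (44 residual degrees of freedom) after a filter on low counts, with Benjamini-Hochberg adjustment over all genes tested. Calls were made at an adjusted p under 0.05. Library sizes were spike-in totals (12515 genes tested) or TMM-scaled totals (12892 genes). Ratios within libraries used counts plus 0.5, and likeness used log2 CPM with a prior count of 2. The members and gene lists were chosen with earlier results of these data known. All members were described, and from each list up to 3 genes, those called in most comparisons. Alternatives were TMM, median-of-ratios scaling, no filter, a replicate block, fits on a comparison's own libraries, DESeq2 1.42.0, limma 3.58.1 on log2 of the deposited loess values plus 1, and leaving out each library. Leaving out the 2 libraries that stood apart was added after seeing the data. Scripts were tested on simulated data. Libraries of a group differed by chi-square per degree of freedom of 1.34 to 18.5 over 66 pairs, so none was counted as deposited more than once. Plots used Python 3.11.15 and matplotlib 3.10.9.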

Additional observations from a re-analysis of the deposited data

Results flagged for a closer look

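The values below are differences between effects, each effect being a treatment against the DMSO of its own line, that passed edgeR's test of the difference itself on the spike-in scale. For POLR2A the effect of dTAG7 minus that in wild type was 0.88 in the MED6 line, 1.07 in MED10, 0.94 in MED14, 1.26 in MED26, 1.22 in MED31 and -2.83 in the CDK9 line. Between Mediator lines, MED1 minus another line gave -0.84 for MED10, -0.71 for MED14, -1.03 for MED26 and -0.99 for MED31. MED12 minus another line gave -0.74 for MED14, -1.06 for MED26 and -1.02 for MED31. MED6 minus MED12 gave 0.68, and MED10 minus MED12 gave 0.87.

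For the other subunit genes the CDK9 line minus wild type gave -3.32 for POLR2B, -3.37 for POLR2C, -4.37 for POLR2D, -2.16 for POLR2E, -2.88 for POLR2G, -2.89 for POLR2H, -2.39 for POLR2I and -2.73 for POLR2K, in a contrast where 93.9% of genes were called lower. On the TMM scale POLR2D (-1.44) and POLR2E (0.75) were called in that contrast. The MED14 line minus wild type gave -0.94 for POLR2B, -0.74 for POLR2C, -0.95 for POLR2D, -0.84 for POLR2E, -0.54 for POLR2G, -1.07 for POLR2H, -0.82 for POLR2I and -0.56 for POLR2K, where 57.1% of genes were called lower, and none of these 8 was called on the TMM scale. The MED6 line minus wild type gave -0.75 for POLR2H (10.9% called lower) and -0.44, not called, without the 2 libraries that stood apart. The CDK9 line with dTAG7 minus wild type with THAL-SNS-032 gave -1.09 for POLR2D.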

How the results depend on the processing

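The rise of POLR2A in 6 Mediator lines kept its direction under every alternative run and its call under all but 1: with the MED6 libraries alone it was 0.88 (edgeR adjusted p = 0.106). Leaving out 1 library gave 0.73 to 1.12 there. The falls of POLR2A depend on the scale. Under TMM and median-of-ratios scaling they became -0.016 and 0.096 in the CDK9 line, 0.060 and 0.20 with dBET6 and -0.0076 and 0.062 with THAL-SNS-032, none called. Under the same pair of scalings the CDK9 line gave 0.78 and 0.90 for POLR2E, 0.0040 and 0.12 for POLR2G, 0.021 and 0.13 for POLR2H, 0.58 and 0.69 for POLR2I and 0.18 and 0.29 for POLR2K. With dBET6 they gave 0.39 and 0.53 for POLR2E, 0.083 and 0.23 for POLR2G and 0.43 and 0.57 for POLR2I. With THAL-SNS-032 they gave 0.40 and 0.47 for POLR2E and 0.12 and 0.19 for POLR2I, and POLR2G was 0.016 under median-of-ratios scaling. In the MED14 line they gave 0.078 and 0.11 for POLR2C, 0.22 and 0.25 for POLR2G, 0.0013 and 0.037 for POLR2I and 0.20 and 0.23 for POLR2K, and POLR2E was 0.0037 under median-of-ratios scaling. Both scalings set the bulk of genes to no change, so these are values relative to the other genes. Leaving out 1 library, POLR2A ran from -0.051 to 0.021 in wild type with dTAG7, and POLR2A minus the median of the others from -0.23 to 0.16 in the CDK9 line, from 0.22 to 0.27 in MED1 and from 1.15 to 1.31 in MED31. Without the 2 libraries that stood apart, the POLR2A difference was -0.90 for MED1 minus MED6, now called, and 0.058 and 0.19 for MED6 minus MED10 and MED14, where the sign changed and neither was called. Fits on a comparison's own libraries called POLR2B, POLR2C, POLR2E and POLR2H lower in the MED10 line and POLR2H in MED28, and lost the POLR2H call in MED6 (-0.68, adjusted p = 0.209). With limma POLR2B was called lower in MED6 (-0.64, adjusted p = 0.0499). Leaving out 1 library called POLR2H in MED10 and POLR2B and POLR2K in MED6. The cause was not tested. In fits with a replicate block, by letter, the POLR2A change was 1.26 in the MED26 line and no call of any member changed. In no comparison did the deviations of same-letter libraries from their group means correlate over 0.1 in all 3 pairs. The letters were therefore not taken to pair samples. Where RNA fell most, the least abundant members rest on few counts, such as 10, 16 and 24 for POLR2C with dBET6.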
